A study of Mus musculus with 16 samples.

Results

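The genes described here are 9 markers of resident tissue macrophages and of Kupffer cells, the macrophages that line the liver sinusoids. They were chosen by symbol (Adgre1, Clec4f, Timd4, Marco, Vsig4, Cd5l, Csf1r, Mrc1 and Cd163) for what they are known to mark, by a rule that uses no measured value, and all 9 were found among the 22322 gene identifiers of both the liver and the adipose tissue table. Messenger RNA was sequenced from the liver and the white adipose tissue of diet-induced obese mice. Halofuginone, an inhibitor of prolyl-tRNA synthetase, was given intraperitoneally at 100 μg/kg every 2 days, controls received vehicle, and tissue was taken after 8 weeks. The vehicle arm, labelled HFD for the high-fat diet, had 5 liver and 3 fat libraries, and the halofuginone arm, labelled H100, likewise had 5 liver and 3 fat libraries. All groups came from obese mice, so none gives the level of these markers in a lean mouse. The labels name no strain, age, sex or fat depot, and they do not say whether a liver and a fat library of the same number came from 1 animal. Nor do they say that replicates were separate animals, so the p-values measure the spread between these samples, which may in part be technical.

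Kupffer cells are seeded before birth and largely renew themselves in place, with the receptor of colony stimulating factor 1 (Csf1r) required for their survival. In the adult liver they clear bacteria, aged red cells and apoptotic cells through scavenger and complement receptors, and several of those receptors serve as their markers. When resident cells are lost, monocytes can enter the niche and acquire the same markers, with Timd4 acquired late. White fat holds its own resident macrophages, which carry Mrc1 and Cd163 along vessels, and obesity adds recruited macrophages around dying adipocytes. Adgre1 and Csf1r are shared by all of these populations, whereas Clec4f is in mice nearly restricted to Kupffer cells.

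Promoter sequence is shown for the Kupffer-restricted lectin Clec4f and for the 3 markers with the largest fitted differences in fat, Marco, Vsig4 and Cd5l. Each run is the 250 bases before the gene's start in RefSeq's annotation of GRCm38.p6, read in the direction of the gene. Of the 9 markers, 7 matched this table, all but Adgre1 and Csf1r. The build differs from that of the count tables, which bears on the coordinates and not on the counts. Capitals mark matches, on either strand, to the word GAGGAAG bound by PU.1, the product of Spi1, to the word TGCTGA, a core word of the MAF factors, or to the C/EBP word TTGCNNAA.
Clec4f, chr6:83656117-83656366, minus strand: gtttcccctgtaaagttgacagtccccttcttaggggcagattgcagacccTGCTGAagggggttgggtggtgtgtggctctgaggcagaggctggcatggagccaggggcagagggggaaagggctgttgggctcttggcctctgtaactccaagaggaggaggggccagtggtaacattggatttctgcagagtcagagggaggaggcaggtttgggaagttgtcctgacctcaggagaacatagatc
Marco, chr1:120505025-120505274, minus strand: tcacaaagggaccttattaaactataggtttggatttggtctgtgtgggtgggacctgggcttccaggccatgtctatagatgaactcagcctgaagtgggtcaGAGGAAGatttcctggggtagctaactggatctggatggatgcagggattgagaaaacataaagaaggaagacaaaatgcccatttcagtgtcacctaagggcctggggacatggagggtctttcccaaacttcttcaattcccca
Vsig4, chrX:96293439-96293688, minus strand: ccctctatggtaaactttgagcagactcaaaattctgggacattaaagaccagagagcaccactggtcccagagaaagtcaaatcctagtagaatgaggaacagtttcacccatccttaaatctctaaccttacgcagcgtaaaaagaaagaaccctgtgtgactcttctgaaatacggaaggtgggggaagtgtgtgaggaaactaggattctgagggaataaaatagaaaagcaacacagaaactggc
Cd5l, chr3:87357631-87357880, plus strand: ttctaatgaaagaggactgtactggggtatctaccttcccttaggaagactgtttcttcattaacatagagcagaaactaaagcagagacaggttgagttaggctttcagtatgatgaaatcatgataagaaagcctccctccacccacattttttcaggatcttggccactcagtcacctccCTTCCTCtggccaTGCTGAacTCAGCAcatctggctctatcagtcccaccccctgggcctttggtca
The PU.1 word was found in 3 of the 7 marker promoters (Marco, Cd5l and Mrc1) and in 10.6% of the 32851 promoters of the table. The MAF word was found in 3 of the 7 (Clec4f, Timd4 and Cd5l) and in 16.1% of all promoters. The C/EBP word was in 0 of the 7 and in 9.56% of all promoters. Vsig4 and Cd163 held none of the 3 words, and no match overlapped another. A match describes the letters in this window and is not evidence of binding.

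The deposited counts summed to between 20309956 and 31980683 per liver library and between 17070614 and 21387799 per fat library. Values are given as counts scaled to CPM by a library total that TMM had adjusted, or as the authors' FPKM, which divides by transcript length, where genes are compared with each other. A count of 0 allows up to 3 counts, or 0.0983 to 0.15 CPM in liver and 0.139 to 0.18 CPM in fat. The summed hepatocyte list (genes such as Alb and Apob) ranged from 40700 to 126000 CPM in liver libraries and from 3.02 to 16.2 CPM in fat. The summed adipocyte list (genes such as Adipoq and Fabp4) was at 13300 to 28300 CPM in fat and at 69.1 to 220 CPM in liver. Some libraries stood apart. Halofuginone liver replicate 1 had a score of -23.3 on the first principal component of the liver (56.2% of the variance), near the vehicle livers (-36.0 to -28.3) and away from the other treated livers (32.4 to 58.0). Vehicle fat replicate 3 held 76.1 CPM of 4 epididymis genes, against 0.54 and 1.33 CPM in the other vehicle fats and 0.604 to 7.47 CPM in treated fat, and the lowest adipocyte sum. The first component of the fat (39.4% of the variance) did not separate the arms: vehicle replicate 2 was at -65.7, the other vehicle fats at 9.6 and -16.2, and the treated fats at 37.9, 60.0 and -25.5. Results that leaving out either library moved by over 1.5 times, or whose call it changed, are given with and without it.

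Among vehicle samples, the Kupffer cell genes were higher in liver. Adgre1 and Csf1r, shared by all of the macrophage populations, and Mrc1 were higher in fat. On the length-scaled FPKM level, the order in vehicle liver was Cd5l (67.0 ± 11.9, SD, n = 5), Clec4f (40.9 ± 8.34), Vsig4 (26 ± 5.31), Csf1r (23.3 ± 6.94), Marco (11.7 ± 8.76), Mrc1 (10.2 ± 1.67), Adgre1 (9.04 ± 1.27), Cd163 (5.03 ± 1.69) and Timd4 (2.35 ± 1.18). Only Cd5l and Clec4f were separated from the next gene in that order, and every other pair of neighbours overlapped between libraries. In vehicle fat the order was Csf1r (137 ± 8.7 FPKM, SD, n = 3), Adgre1 (129 ± 15.6), Mrc1 (63.1 ± 39.4), Cd5l (9.44 ± 12.8), Cd163 (9.05 ± 4.72), Vsig4 (5.15 ± 1.74), Marco (2.09 ± 0.739), Timd4 (0.283 ± 0.14) and Clec4f (0.00667 ± 0.0115). There Csf1r overlapped Adgre1, and Cd5l, Cd163 and Vsig4 overlapped in turn, while the other neighbours were apart.

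**Figure D1:**
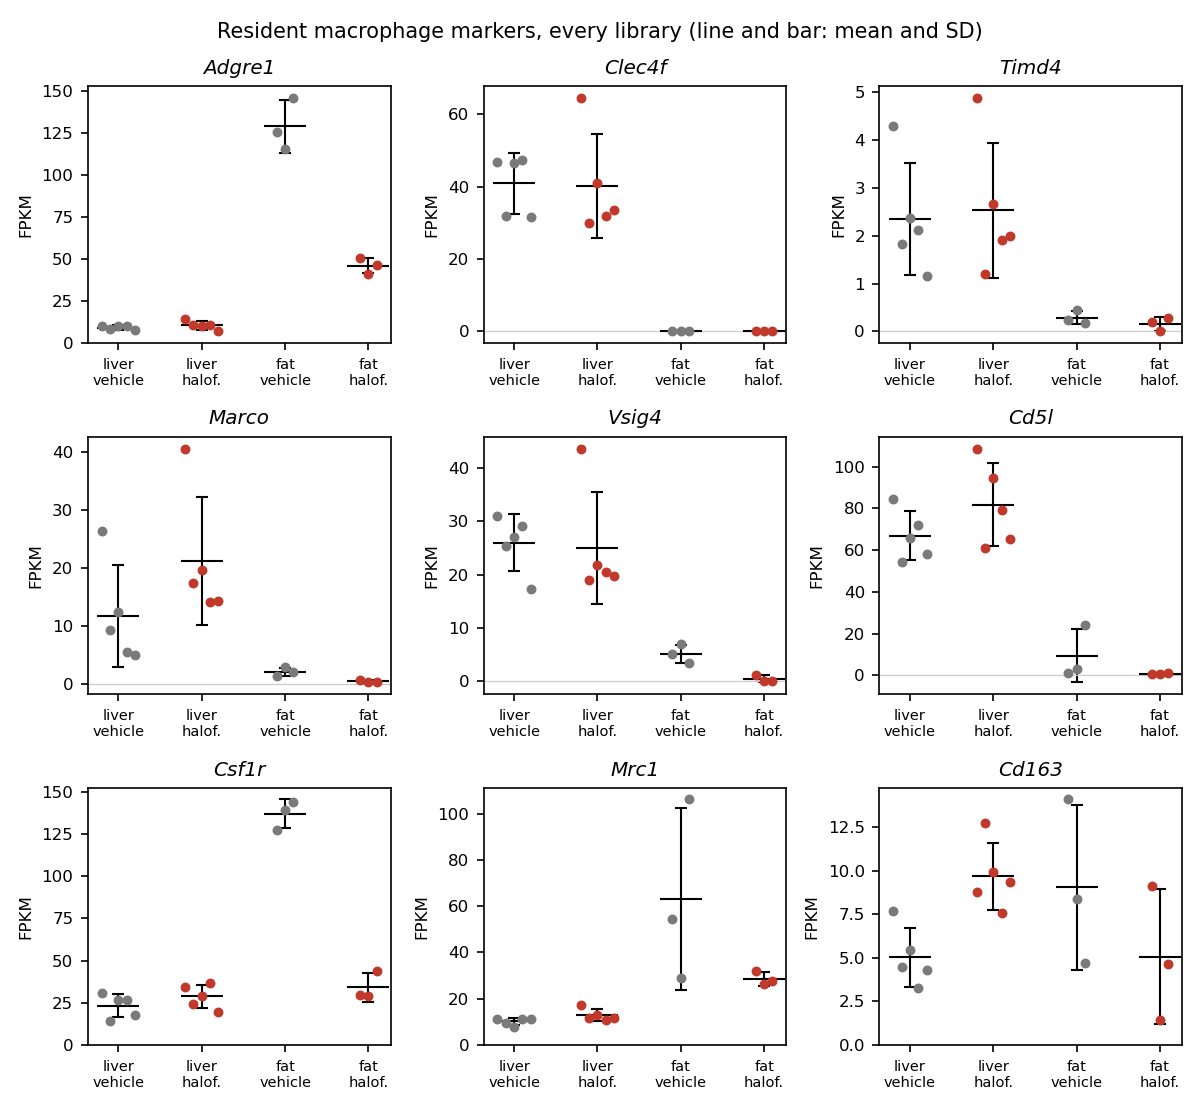
FPKM of each of the 9 markers in every library, with liver vehicle and halofuginone (5 libraries each) and fat vehicle and halofuginone (3 each) along the horizontal axis of each panel. Points are libraries, the horizontal line is the group mean and the bar is the SD; Adgre1 in treated fat (41.1 to 50.2 FPKM) lies below vehicle fat (115 to 146 FPKM), whereas the liver groups overlap in every panel.

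Tested between vehicle fat and vehicle liver in 1 edgeR quasi-likelihood fit of all 16 libraries, 8 of the 9 markers differed at an adjusted p under 0.05, in a comparison where 72.3% of the 14853 genes tested did. Adgre1 was higher in fat by 2.59 (log2, SE 0.19), Csf1r by 1.67 (SE 0.19) and Mrc1 by 1.45 (SE 0.29). Higher in liver were Timd4 (log2 difference of fat from liver -4.22, SE 0.68), Cd5l (-4.00, SE 0.72), Marco (-3.66, SE 0.58) and Vsig4 (-3.53, SE 0.50). Without vehicle fat replicate 3, Cd5l was at -6.23 and Mrc1 at 0.84, and both still passed (edgeR adjusted p 9.01e-09 and 0.00454). Clec4f, the galactose-binding lectin of Kupffer cells, had 13133 counts over the 5 vehicle livers and 1 count over the 3 vehicle fats. Per library total that is a ratio of 5360, with an exact 95% interval of 962 to 212000 that covers counting error only. In treated fat Clec4f had 0 counts. Were there 3 counts over the group, it would be 1910-fold lower than in vehicle liver. The lower bound of the exact 95% interval is 1550. Cd163 was at a log2 difference of -0.35 (SE 0.44, edgeR adjusted p 0.489), and at -0.05 without vehicle fat replicate 3 (edgeR adjusted p 0.938). Its sign turned to 0.85 with library totals alone as the scale. That scaling moved the median log2 difference of all genes from 0.18 to 1.36, and Adgre1, Csf1r and Mrc1 stayed higher in fat under every scaling run. Their sizes depended on it. Over the alternative settings they were 2.57 to 3.82 for Adgre1, 1.65 to 2.86 for Csf1r and 1.43 to 2.63 for Mrc1. CPM values were scaled within each tissue, unlike this fit.

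In liver, 8 of the 9 markers did not pass the test between halofuginone and vehicle, and Cd163 rose. The share of all 12311 genes tested that rose at an edgeR adjusted p under 0.05 was 12.7%, and 23.2% passed in either direction, against 1 of 9 markers. Of the 9, 0 had every treated library above every vehicle library, a pattern shown by 5.13% of all genes. The median fitted change was 0.09 (log2) over the 9 markers and 0.02 over all genes.

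Cd163, the scavenger receptor that takes up haemoglobin bound to haptoglobin, stood at 35.9, 21.4, 26, 14.5 and 20 CPM in vehicle livers 1 to 5. Under halofuginone it stood at 39.0, 51.8, 37.0, 33.6 and 40.1 CPM. The treated library at 33.6 CPM lay inside the vehicle range and the other 4 lay above it. The fitted difference was 1.71-fold (log2 0.78, SE 0.21, edgeR adjusted p 0.0255), with means of 23.5 ± 8.03 and 40.3 ± 6.9 CPM (SD, n = 5 each). Without halofuginone replicate 1 it was 0.76 (adjusted p 0.0208). The adjusted p exceeded 0.05 when halofuginone replicate 2 (0.0637), 3 (0.0517) or 5 (0.0548) or vehicle replicate 2 (0.0696) or 5 (0.0597) was left out, and it was 0.18 in 1 fit of all 4 groups. Relative to Adgre1 in the same library, Cd163 FPKM was 0.329 to 0.762 in vehicle livers and 0.614 to 1.38 in treated livers. Beside this rise, the summed hepatocyte list was at 111000 to 126000 CPM in vehicle livers and 40700 to 106000 CPM in treated livers, and its part in the result was not tested.

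The Kupffer cell identity genes overlapped between the liver arms. Clec4f was at 122, 86.2, 125, 118 and 81.6 CPM in vehicle livers 1 to 5 and at 161, 68.1, 85.3, 79.1 and 80.5 CPM in treated livers 1 to 5. Treated replicate 1 was the highest of all 10 and 3 of the other 4 treated libraries lay below every vehicle library (log2 -0.17, SE 0.23, edgeR adjusted p 0.617). Vsig4, the complement receptor CRIg that captures opsonised bacteria from blood, was at 46.8, 39.7, 41.9, 42.0 and 25.9 CPM in vehicle livers. In treated livers Vsig4 was at 63.0, 25.2, 26.3, 29.5 and 27.5 CPM, again with replicate 1 the highest of all (log2 -0.20, SE 0.26, adjusted p 0.6). Without that library, Clec4f and Vsig4 both passed the test as lower under halofuginone, by -0.47 (edgeR adjusted p 0.0254) and -0.56 (adjusted p 0.0127). Leaving it out also raised the number of genes called over the whole table from 2850 (of 12311 tested with all libraries) to 5312. The markers called went from 1 to 3 in that fit, which called more genes throughout. The markers are thus not shown to pass more often than all genes did there.

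Timd4 encodes Tim-4, a phosphatidylserine receptor for apoptotic cells and a marker of the embryonically seeded population. It was the lowest of the 9 in liver, at 9.82, 4.31, 5.59, 4.67 and 2.62 CPM in vehicle and 10.7, 2.39, 4.90, 4.21 and 4.21 CPM under halofuginone. The arms overlapped almost throughout (log2 -0.04, SE 0.40, edgeR adjusted p 0.95), and the SE leaves room for a difference of the size seen for Clec4f without replicate 1. Without halofuginone replicate 1 the fitted Timd4 difference was -0.48 (edgeR adjusted p 0.286). Cd5l, a secreted protein also called AIM that supports macrophage survival, was the most abundant of the 9 per length in either liver arm. It was at 181, 120, 145, 148 and 124 CPM in vehicle and 223, 115, 162, 162 and 129 CPM under halofuginone (log2 0.14, SE 0.18, adjusted p 0.6).

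Marco, a class A scavenger receptor for bacteria and particles, had vehicle liver levels of 51.6, 19.7, 25.7, 10.6 and 10 CPM. The treated livers were at 76.0, 30.5, 31.9, 27.4 and 25.8 CPM. All 5 treated libraries lay above 4 of the 5 vehicle libraries and 4 of the 5 lay below vehicle replicate 1. The fitted difference of 0.70 (log2, SE 0.46) had an edgeR adjusted p of 0.275, and it was 0.27 without halofuginone replicate 1 and 1.21 without vehicle replicate 1 (adjusted p 0.633 and 0.0582). Mrc1, the mannose receptor CD206, was at 64.5, 54.4, 44.5, 60.3 and 64.4 CPM in vehicle and 93.7, 58.6, 59.8, 58.6 and 62.0 CPM under halofuginone. Apart from replicate 1, all treated Mrc1 values lay inside the vehicle range (log2 0.21, SE 0.15, adjusted p 0.342). Without halofuginone replicate 1 the fitted Mrc1 difference was 0.03 (edgeR adjusted p 0.841).

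Of the lineage genes, Csf1r was at 76.7, 59.2, 62.2, 65.2 and 60.2 CPM in vehicle livers and 98.0, 63.4, 62.1, 69.5 and 52.3 CPM in treated livers (log2 0.09, SE 0.15, edgeR adjusted p 0.683). Adgre1, which encodes the adhesion receptor F4/80, was at 34.5, 28.1, 28.8, 27.6 and 24.7 CPM and at 43.7, 26.2, 22.5, 29.2 and 21.3 CPM. The treated values of both spanned the vehicle values. The fitted Adgre1 difference was -0.01. Without halofuginone replicate 1 it was -0.24, and that of Csf1r was -0.09 (edgeR adjusted p 0.144 and 0.538). The sign of the small Adgre1 and Timd4 differences changed between scalings (to 0.13 and 0.10 with library totals alone, which moved the median of all genes from 0.02 to 0.17). Halofuginone replicate 1 was the highest library of its arm for 8 of the 9 markers, and vehicle replicate 1 the highest of its arm for 8 of the 9. In bulk tissue, fewer cells of a type and less RNA per cell cannot be told apart.

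**Figure D2:**
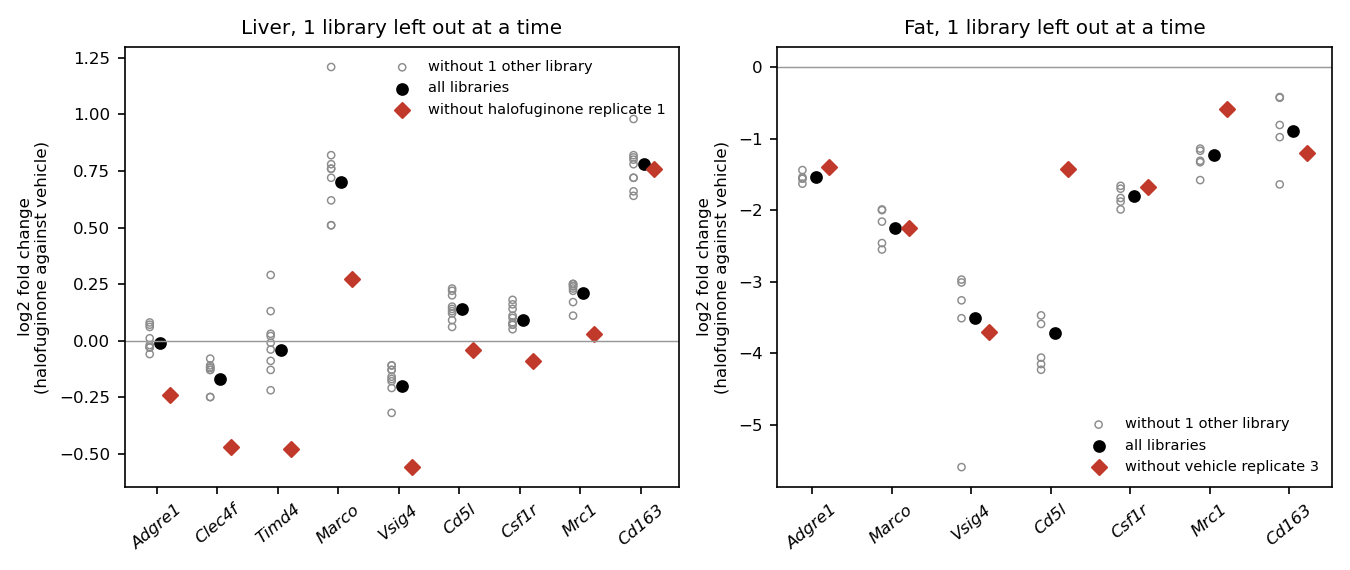
Fitted log2 fold change of each marker, halofuginone against vehicle, in liver (left) and fat (right), with all libraries (black), without halofuginone liver replicate 1 or vehicle fat replicate 3 (red diamonds) and without each other library in turn (open circles). In liver the diamonds lie below the black points for all 9 markers; in fat they lie nearer 0 for Cd5l (-1.42 against -3.71) and Mrc1 (-0.58 against -1.23).

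In fat the 7 markers that could be tested all had negative fitted changes under halofuginone, of which 0 passed the adjusted test. The fat comparison called 0 of 14030 genes (0.0%) in edgeR at an adjusted p under 0.05, where 1881 had an unadjusted p under 0.05 and DESeq2 called 723. At an unadjusted p under 0.05, 6 of the 7 markers were lower (Adgre1, Marco, Vsig4, Cd5l, Csf1r and Mrc1), against 7.91% of all genes. In 5 of the 7 every treated library lay below every vehicle library, against 10.4% of all genes. DESeq2 called 5 of them (Adgre1, Cd5l, Csf1r, Marco and Vsig4). Clec4f and Timd4 were too low to be tested in fat, and Vsig4 passed the filter on low counts through its vehicle libraries, since 2 of the treated libraries held 3 counts each.

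Csf1r, the receptor for colony stimulating factor 1 and interleukin 34, was at 399, 435 and 535 CPM in vehicle fats 1 to 3 and at 114, 113 and 167 CPM in treated fats. The arms were far apart relative to their spread, with a fitted 3.48-fold lower level under halofuginone (log2 -1.80, SE 0.23, p 0.000102, edgeR adjusted p 0.0954). Adgre1 was at 370, 334 and 451 CPM in vehicle and 138, 123 and 138 CPM in treated fat, again without overlap (p 5.35e-05, edgeR adjusted p 0.0954). Without vehicle replicate 3 the fitted log2 differences were -1.67 for Csf1r and -1.40 for Adgre1. The smallest adjusted p of any gene in fat was 0.0887. Divided by Adgre1 FPKM of the same library, Csf1r was at 0.988 to 1.21 in vehicle fat and 0.589 to 0.947 in treated fat.

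Vsig4, Marco and Timd4, receptors that mark Kupffer cells in liver, had low counts in fat. Vsig4 had 7.43, 9.76 and 5.25 CPM in vehicle fats and 1.70, 0.139 and 0.158 CPM in treated fats. The first treated library held most of the treated counts and the other 2 were at the floor, while the arms did not overlap. The fitted difference was -3.50 (log2, SE 0.94, p 0.0077, edgeR adjusted p 0.22). It was -5.59 without treated replicate 1 and -2.97 without treated replicate 2. Marco had 2.76, 5.44 and 4.10 CPM in vehicle fats and 1.19, 0.604 and 0.789 CPM in treated fats, without overlap (log2 -2.25, SE 0.45, p 0.0016, adjusted p 0.159). Timd4 had 0.540, 0.943 and 0.404 CPM in vehicle and 0.396, 0 and 0.579 CPM in treated fats, from 0 to 17 counts a library, and the arms overlapped.

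The sizes of the Cd5l and Mrc1 differences in fat depended on 1 library. Cd5l stood at 2.58, 5.71 and 52.5 CPM in vehicle fats and at 1.25, 1.12 and 2.26 CPM in treated fats. The arms did not overlap, but the third vehicle library was far above the other 2, and the fitted difference went from -3.71 (SE 1.15, p 0.0151, edgeR adjusted p 0.271) to -1.42 (p 0.0399, adjusted p 0.373) without it. Mrc1 stood at 299, 153 and 607 CPM in vehicle and 168, 141 and 143 CPM in treated fats, where treated replicate 1 lay above the lowest vehicle library. Its fitted difference of -1.23 (SE 0.46, p 0.0335, adjusted p 0.330) became -0.58 without vehicle replicate 3 (p 0.0957). That library is also the one with 76.1 CPM of epididymis genes and the lowest adipocyte sum, and their part in these values was not tested. Cd163 stood at 63.7, 36.3 and 22.2 CPM in vehicle and 39.3, 6.32 and 19.8 CPM in treated fats, with overlap (log2 -0.90, SE 0.66, p 0.212, adjusted p 0.606). Its fitted difference was -1.64 without treated replicate 1 (edgeR p 0.0449, adjusted p 0.561). It was -0.43 without treated replicate 2 (edgeR p 0.441) and -0.42 without vehicle replicate 1 (p 0.568).

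**Figure D3:**
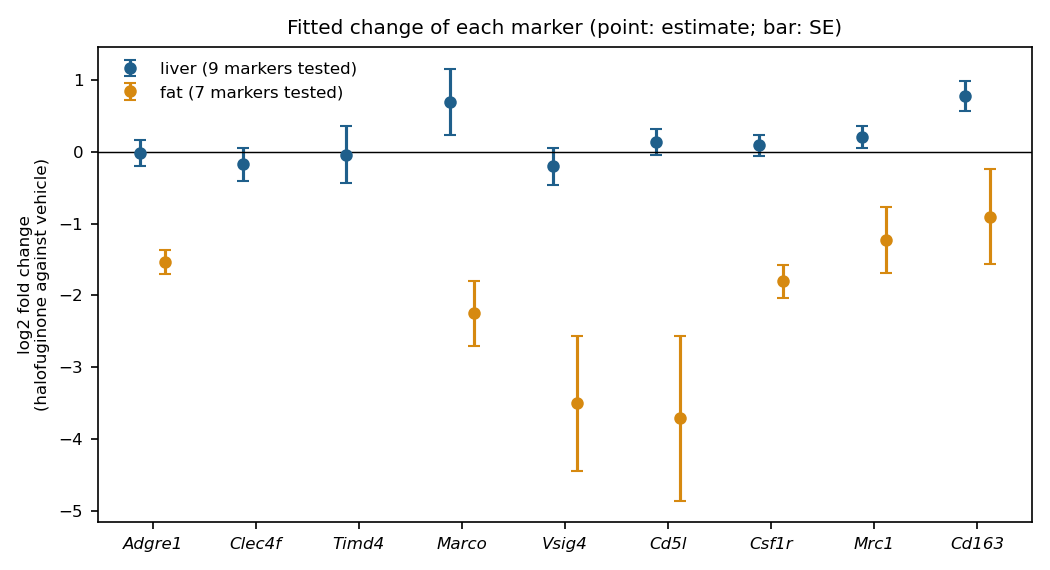
Fitted log2 fold change (halofuginone against vehicle) of each marker in liver (9 tested, 5 against 5 libraries) and in fat (7 tested, 3 against 3), with bars of 1 SE. Liver values lie between -0.20 (Vsig4) and 0.78 (Cd163), and fat values between -3.71 (Cd5l) and -0.90 (Cd163).

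Whether halofuginone acted differently on the markers in the 2 tissues was tested as an interaction in the fit of all 16 libraries. The effect in fat was more negative than in liver for 3 of the 9 markers at an edgeR adjusted p under 0.05, against 0.532% of the 14853 genes tested. The 3 were Csf1r (difference of log2 effects -1.90, SE 0.27, adjusted p 0.00614), Adgre1 (-1.53, SE 0.27, adjusted p 0.0202) and Vsig4 (-3.36, SE 0.72, adjusted p 0.0412). The Vsig4 value rests on 3 to 30 counts per treated fat library. Clec4f and Timd4, too low to be tested in fat, are among the 9. Csf1r passed in each of the 16 fits that left out 1 library. Adgre1 missed the threshold without treated fat replicate 2 (adjusted p 0.0595), and Vsig4 missed it in 12 of the 16 (adjusted p up to 0.0979). Marco (-2.98, SE 0.80), Cd5l (-3.83, SE 0.93), Mrc1 (-1.43, SE 0.42) and Cd163 (-1.69, SE 0.63) had negative differences with adjusted p values of 0.0836, 0.0621, 0.111 and 0.201. Without vehicle fat replicate 3 the differences of Cd5l and Mrc1 were -1.60 and -0.82 (edgeR adjusted p 0.111 and 0.239), and without treated fat replicate 1 those of Vsig4 and Cd163 were -5.41 and -2.43 (0.0026 and 0.092). In the other direction, Vsig4 was at -2.82 without treated fat replicate 2 (edgeR adjusted p 0.0979). Cd163 was at -1.21 without vehicle fat replicate 1 (edgeR adjusted p 0.398). Without halofuginone liver replicate 1, Cd5l (-3.69) and Marco (-2.59) passed (edgeR adjusted p 0.0328 and 0.0454), in a fit that called 1053 genes against 141 with all libraries. Timd4 (-0.95, SE 0.95) and Clec4f (-1.49, SE 1.37) had too few counts in fat for a difference to be resolved. Without halofuginone liver replicate 1 the Timd4 difference was -0.54 (edgeR adjusted p 0.784). The fit of all 16 libraries took 1 spread per gene over both tissues, with a common coefficient of variation of 0.276 against 0.337 in fat alone. The SE of the difference was below that of the fat effect alone for Vsig4 (0.72 against 0.94), Cd5l (0.93 against 1.15), Mrc1 and Cd163. For Csf1r, Adgre1 and Marco it was above. The spread in fat may thus be understated in these calls.

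The other genes of Kupffer cells outside the 9 behaved unevenly. In liver, where 10.5% of all genes fell at an edgeR adjusted p under 0.05, 1 of the 12 tested did: Hpgd, which degrades prostaglandins, fell from 138 ± 10.6 to 47.0 ± 45.6 CPM (log2 -1.56, adjusted p 0.0327). Treated livers held 17.8 to 128 CPM of Hpgd, so the highest lay inside the vehicle range of 122 to 150 CPM. Slc40a1, the iron exporter ferroportin, was at 134 ± 10.7 and 137 ± 23.6 CPM, and Nr1h3, the nuclear receptor LXR alpha, at 82.5 ± 7.41 and 80.1 ± 6.13 CPM. The median log2 change of the list was 0.00 in liver against 0.02 over all genes. In fat 3 of the 11 tested were lower at an unadjusted p under 0.05 (Folr2, Slc40a1 and Slc11a1), against 7.91% of all genes, and 1 was higher (Id3). Slc11a1, the phagosomal metal transporter Nramp1, was at 200 ± 71.0 and 116 ± 18.4 CPM there, and Id3, a Kupffer cell regulator that other cells also express, at 65.5 ± 19.7 and 126 ± 40.2 CPM (SD, n = 3, edgeR adjusted p 0.305 and 0.287).

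Csf1, the ligand of Csf1r, fell in treated liver, where Csf1r itself did not pass the test. Of the 14 genes of the Csf1 axis and of lineage transcription factors, 3 fell and 0 rose in liver (edgeR), Csf1 and Cebpb among them. Over all genes 10.5% fell and 12.7% rose. Csf1, the growth factor itself, went from 13.7 ± 1.26 to 8.03 ± 1.53 CPM (SD, n = 5; log2 -0.77, adjusted p 0.00617). Cebpb, a myeloid and hepatocyte transcription factor, went from 67.2 ± 8.94 to 53.6 ± 3.44 CPM (-0.32, adjusted p 0.043). Csf1 was chosen for mention after its values were seen, as were Spi1 and Maf. Spi1, which encodes PU.1, was at 6.73 ± 1.59 and 6.11 ± 1.75 CPM in liver and at 114 ± 44.6 and 83.1 ± 21.1 CPM in fat. Maf was at 31.7 ± 2.01 and 28.8 ± 7.32 CPM in liver and at 107 ± 28.2 and 86.2 ± 11.6 CPM in fat, and none of the 4 differences passed.

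A list of pan-macrophage genes was set beside the 9 markers. In liver 1 of 17 passed the edgeR adjusted test, against 23.2% of all genes. It was Cx3cr1, the fractalkine receptor of monocytes and some macrophages, at 2.89 ± 0.946 and 0.601 ± 0.404 CPM (log2 -2.30, adjusted p 0.00715). Lyz2, lysozyme, was at 128 ± 19.5 and 116 ± 47.7 CPM, and C1qb and C1qc, complement subunits made by macrophages, were at 61.6 ± 7.95 and 59.0 ± 11.5 CPM and at 62.0 ± 6.18 and 61.2 ± 8.64 CPM. In fat 7 of 17 were lower at an unadjusted p under 0.05, against 7.91% of all genes, and 0 were higher. The median log2 change of the list in fat was -0.49 against 0.01 over all genes. Lyz2 was at 4130 ± 2120 and 2060 ± 196 CPM there (log2 -1.0, edgeR adjusted p 0.317), and the lysosomal protein gene Cd68 at 834 ± 273 and 493 ± 106 CPM (-0.76, adjusted p 0.326). Ctss, cathepsin S, was at 1780 ± 1020 and 1620 ± 394 CPM, and Mpeg1, perforin-2, at 1600 ± 529 and 1060 ± 106 CPM. C1qb was at 627 ± 102 and 300 ± 38.4 CPM in fat (-1.06, adjusted p 0.141) and C1qc at 582 ± 73.3 and 260 ± 22.1 CPM (-1.16, adjusted p 0.0954). Of the 17, Itgam, the integrin CD11b that neutrophils share, had the most negative fitted value, at 246 ± 197 and 72.9 ± 23.4 CPM (-1.75, p 0.0178, adjusted p 0.283); it was chosen for mention after its values were seen.

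Scavenger and lectin receptors outside the 9 were lower in fat in 6 of 15 at an unadjusted p under 0.05 (Colec12, Stab1, Stab2, Olr1, Cd209f and Cd209g), against 7.91% of all genes, and 0 were higher. Stab1, stabilin-1, was at 282 ± 54.8 CPM in vehicle and 85.9 ± 22.7 CPM in treated fat (log2 -1.71, edgeR adjusted p 0.105). Clec10a, the galactose lectin CD301, was at 150 ± 15.3 and 223 ± 86.8 CPM (0.57, adjusted p 0.428). In liver 1 of the 11 tested fell, against 10.5% of all genes. It was Cd36, the fatty acid and lipoprotein receptor that hepatocytes also express, from 223 ± 21.8 to 67.3 ± 23.4 CPM (log2 -1.73, edgeR adjusted p 0.00158). Stab1 was at 50.0 ± 3.51 and 57.4 ± 1.48 CPM and Stab2 at 57.0 ± 8.92 and 47.6 ± 8.89 CPM in liver, neither passing.

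Genes of vessel-associated resident macrophages of fat, the population that carries Mrc1 and Cd163, were lower at an unadjusted p under 0.05 in 7 of 11 and higher in 0, with a median of -0.91. The share of all genes lower by that rule was 7.91%. Of the 7, Folr2 also stands in the list of other Kupffer cell genes, and Cd209f and Cd209g also stand in the scavenger and lectin list. Folr2, folate receptor beta, was at 79.4 ± 14.1 CPM in vehicle and 16.3 ± 4.51 CPM in treated fat (log2 -2.28, SE 0.25, edgeR adjusted p 0.0954). Gas6, a ligand of the engulfment receptor Mertk that stromal cells also make, was at 294 ± 63.2 and 157 ± 35.7 CPM, and F13a1, coagulation factor XIII subunit A, at 136 ± 19.3 and 74.7 ± 32.8 CPM. Lyve1, which lymphatic endothelium shares, was at 30.7 ± 5.84 and 27.6 ± 6.97 CPM. In liver, where 23.2% of all genes passed, Lyve1 was the 1 gene of the 7 tested that passed, from 40 ± 6.67 to 22.6 ± 3.72 CPM (log2 -0.82, edgeR adjusted p 0.00579), and sinusoidal endothelium expresses it as well.

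Monocytes can replace resident macrophages, and lipid-associated macrophages accompany them in obesity. Of 9 monocyte genes tested in liver, 3 fell and 0 rose (edgeR): Ccr2, the receptor for the monocyte attractant Ccl2, from 2.71 ± 0.593 to 1.12 ± 0.397 CPM, Plac8 from 7.17 ± 1.10 to 4.07 ± 0.714 CPM and Ace from 2.2 ± 0.388 to 1.44 ± 0.216 CPM. In fat 2 were higher (Plac8 and Chil3) and 2 lower (S100a4 and Fn1) at an unadjusted p under 0.05, and Ccr2 was at 32.8 ± 16.2 and 55.0 ± 36.0 CPM. Of 12 genes of lipid-associated macrophages, 6 fell and 1 rose (Fabp5, a fatty acid binding protein, from 7.49 ± 3.25 to 123 ± 118 CPM) in liver, and 6 were lower and 0 higher at an unadjusted p under 0.05 in fat, with medians of -0.73 and -1.01. The shares of all genes that fell in liver and were lower in fat by the same rules were 10.5% and 7.91%. The median over the 7 markers tested in fat was -1.80, and the lists and the markers come from the same libraries. The summed fibroblast list was at 3800 to 5430 CPM in vehicle fat and 2800 to 3300 CPM in treated fat, and its part in these values was not tested.

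**Figure D4:**
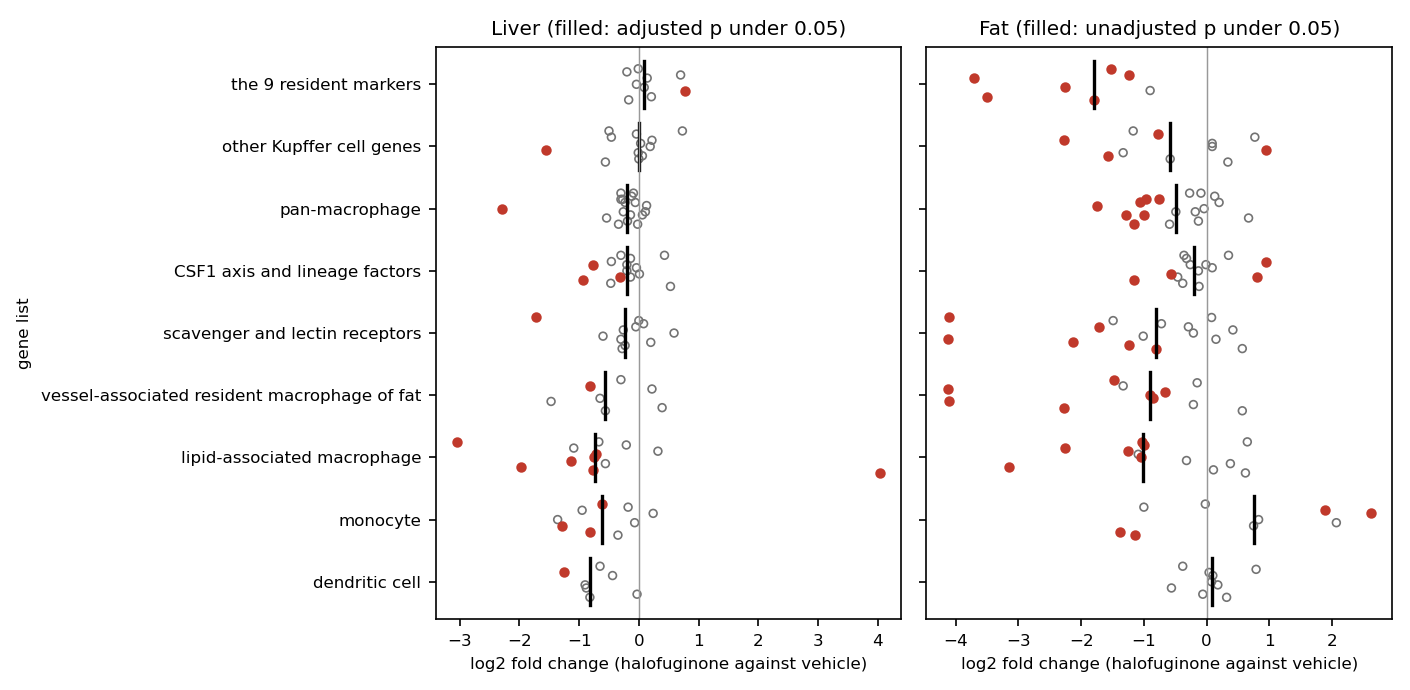
Fitted log2 fold change of every tested gene of 9 lists in liver (left; filled points have an adjusted p under 0.05) and in fat (right; filled points have an unadjusted p under 0.05). Vertical black lines are list medians; in fat the line of the 9 resident markers, of which 7 were tested, is at -1.80 and that of pan-macrophage genes at -0.49.

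Genes with profiles nearest to 2 of the markers were found by the root mean square distance between log2 CPM profiles centred on the vehicle mean. Over the 10 liver libraries, the 5 nearest to Clec4f among 8801 candidates were Slc15a3 (0.154), Hcls1 (0.164), Tyrobp (0.164), Frmd4a (0.169) and Cd68 (0.174), where the median candidate was at 0.485. Of the other markers, Vsig4 was at 0.160 from Clec4f and Adgre1 at 0.253, while Cd163 was at 0.880 and Marco at 0.935, beyond the median gene. Over the 6 fat libraries, the 5 nearest to Adgre1 among 10936 candidates were Fstl1 (0.125), Tbxas1 (0.168), C5ar1 (0.177), Daglb (0.189) and Man2b1 (0.189), with a median candidate at 1.15. Fstl1, a secreted glycoprotein of stromal cells, was at 404 CPM in vehicle and 152 CPM in treated fat, and C5ar1, the complement C5a receptor of myeloid cells, at 167 and 56.4 CPM. Csf1r was the closest of the markers to Adgre1 in fat, at 0.271. These distances are descriptions over libraries that share depth and tissue composition.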

How the data were processed

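Poly(A)-selected RNA from 10 liver and 6 white adipose tissue libraries was measured. Counts per gene and FPKM were deposited by the authors, per the file headers; fastp 0.18.0, Bowtie2 2.2.8, HISAT2, StringTie 1.3.1, RSEM and the build mm39 are named per the submitters' processing notes, and strand handling is not given in the sources used here. The FPKM values, deposited by the authors, were used to compare levels between genes. Totals per library bound the precision: a count of 0 allows 3 counts, and intervals cover counting error only.

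Counts were tested in R 4.3.3 with edgeR 4.0.16 (filterByExpr, TMM, quasi-likelihood test, two-sided, Benjamini-Hochberg over all genes tested, threshold 0.05), within each tissue for treatment and over all 16 libraries for tissue contrasts. Common biological coefficients of variation were 0.229 in liver and 0.337 in fat. Alternatives were DESeq2 1.42.0, limma 3.58.1 on log2(FPKM + 0.1) and log2(FPKM + 1), other scalings and filters, and each library left out. The scripts were tested on simulated counts. No 2 libraries agreed within sampling noise.

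The 9 markers and the gene lists were chosen with earlier results of these data known, although the rule for the markers names symbols and uses no measured value. Genes named are the 9 markers, up to 4 members of each list with the highest mean level in the tissue and, chosen after their values were seen, list members that passed where 6 or fewer did. Some genes stand in more than 1 list, and 1 gene of the lists is not reported here. Also named are the 5 genes with the nearest profile to Clec4f in liver and Adgre1 in fat (mean of at least 5 CPM).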

Additional observations from a re-analysis of the deposited data

Results flagged for a closer look

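Among the 18 groups of 5 liver libraries (9 markers in each arm), 4 had an extreme library whose gap to its nearest neighbour exceeded 0.71 of the group's range, where chance gives about 1 in 20. All 4 were halofuginone liver replicate 1. The markers of an arm share the same 5 libraries, so the groups are not independent and the 4 flags reflect 1 library. Clec4f was at 161 CPM there (next highest treated library 85.3), Marco at 76.0 (31.9), Vsig4 at 63.0 (29.5) and Mrc1 at 93.7 (62.0). The same library lay on the vehicle side of the first principal component, at -23.3. Its part in the liver results was measured by leaving it out, after which Clec4f and Vsig4 passed the edgeR adjusted test as lower and Cd163 still passed as higher. The library was flagged for its high Clec4f and Vsig4 values, so leaving it out lowers their treated means by construction. That fit called 5312 genes, against 2850 of the 12311 tested with all libraries. The markers are thus not shown to pass more often than all genes did there.

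The halofuginone effect differed between fat and liver, by the test of the difference itself, for Adgre1 (-1.53 on the log2 scale), Vsig4 (-3.36) and Csf1r (-1.90), where 0.532% of all genes had a more negative effect in fat. Vsig4 missed the threshold in 12 of the 16 fits without 1 library and with a replicate block, and Adgre1 without treated fat replicate 2 (edgeR adjusted p 0.0595). Each was lower in all 3 treated fat libraries than in any vehicle fat, and overlapped between the arms in liver. Vsig4 had only 3 to 30 counts per treated fat library.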

How the results depend on the processing

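Counts of markers called were the least stable results. In liver the number called was 0 in 1 fit of all 4 groups, 2 with a replicate block (Cd163 and Marco) and 0 to 3 with 1 library left out, against 1; all genes called ranged from 1275 to 5312 with 1 library left out. In fat the markers called were 4 in 1 fit of all groups, 5 in DESeq2 and 2 in limma on log2(FPKM + 1), against 0; all genes called were 334, 723 and 13 in those, 1 without a filter on low counts and 0 to 1 with 1 library left out. For the difference between tissues, DESeq2 called 6 markers and 687 genes, limma on log2(FPKM + 1) 280 genes and the replicate block 20 genes (with Marco in place of Vsig4 among its 3 markers), and leaving out 1 library gave 1 to 5 markers and 34 to 1053 genes. The cause was not tested. Vehicle fat against vehicle liver called 8 markers in every alternative run.

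Small differences changed sign. Adgre1 in liver was 0.13 with library totals alone, 0.01 with upper quartile factors, 0.17 and 0.16 in limma on log2(FPKM + 0.1) and log2(FPKM + 1), and -0.24 to 0.08 with 1 library left out. Timd4 in liver was 0.10, 0.07 and 0.06 with library totals and the FPKM fits, and -0.48 to 0.29 with 1 left out. Cd5l (-0.04 to 0.23) and Csf1r (-0.09 to 0.18) in liver reversed without halofuginone replicate 1. Clec4f in the tissue difference was 0.05 on log2(FPKM + 1) and -1.91 to 0.17 with 1 left out. Cd163 between vehicle tissues was 0.85, 0.76 and 0.67 with library totals and the FPKM fits.

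Within each tissue, replicate numbers did not pair the vehicle and halofuginone arms. Deviations of same-numbered libraries of the 2 arms correlated at -0.156 to 0.0566 in liver and -0.57 to 0.111 in fat. In that check 1 of 5 liver and 0 of 3 fat libraries matched their own number best. Liver libraries were not compared with fat libraries for pairing. The replicate block was not run for the vehicle tissue contrast. With 3 libraries a group and a common coefficient of variation of 0.337, fat resolves less than liver, and Clec4f, Timd4 and treated Vsig4 in fat are limited by counts near the floor.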
